A study of Mus musculus with 9 samples.

Results

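The 10 genes described here are the 3 neurofilament subunit genes Nefl, Nefm and Nefh and 7 genes widely used as markers of retinal ganglion cells, namely Thy1, Pou4f1, Pou4f2, Sncg, Rbpms, Isl2 and Gap43. They were chosen by symbol, and all 10 were found among the 13089 genes listed for each library. RNA sequencing was carried out on whole eyes of wild-type female mice aged 4 weeks from 3 inbred strains. The strains were A/J and BALB/c, both albino, and C57BL/6J, which is pigmented; the study compared them because their retinas degenerate at different rates. Each library was made from poly(A) RNA pooled from 5 mice, with 3 libraries per strain and 9 in all, and libraries are named here by strain and number. Whether a strain's libraries came from separate pools of mice is not stated in the labels. The p-values below measure only the spread among libraries, which may be technical.

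Retinal ganglion cells are the output neurons of the retina, and their axons form the nerve fibre layer and the optic nerve. Large axons are filled with neurofilaments, polymers in which the light subunit (Nefl) forms the core together with the medium (Nefm) and heavy (Nefh) subunits, and which set axon calibre. Ganglion cells rank among the strongest sources of neurofilament in the eye, although horizontal cells and peripheral nerve fibres also contain it. A whole eye also holds lens, cornea, muscle and stroma, so some of these markers have other sources too: Thy1 is made by fibroblasts, Rbpms by smooth muscle and Sncg by fat cells and peripheral neurons. In bulk tissue, fewer cells of a type and less RNA per cell cannot be told apart.

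The neurofilament genes are paralogs, so their coding sequences were compared to see how far short reads could be shared between them. Nefl and Nefm lie next to each other on chromosome 14, with 0 RefSeq protein-coding genes between them, and Nefh lies on chromosome 11. The GENCODE M21 coding sequences of build GRCm38 have 1629 bases for Nefl, 2544 for Nefm and 3270 for Nefh, without the stop codon. Aligned over their coding sequences, Nefl and Nefm were identical at 62% of 1594 aligned bases, and their longest shared run had 17 bases. For Nefl and Nefh the identity was 57.7% of 1521 bases with a longest run of 14, and for Nefm and Nefh it was 60.9% of 2312 bases with a longest run of 23. No stretch of 31 bases in a Nefl or Nefh transcript occurred in the transcripts of any other gene, and 0.244% of those of Nefm did. Among the other members, Pou4f1 (1.72%) and Pou4f2 (2.08%) shared some stretches with each other, Thy1 shared 1.13% and Rbpms 0.835% with other genes, and Sncg, Isl2 and Gap43 shared 0%. The counting rule for shared reads is not given in the sources used here.

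Values are RPKM, reads scaled to transcript length and library size, so levels can be compared between genes; the depth of the libraries is unknown. Changes are on the scale log2(RPKM + 0.5) after scaling each library by a size factor, and were tested with limma in 1 fit of all 9 libraries. Levels of single libraries are given as deposited, before scaling, and it is said where scaling changes which strains overlap. A gene was called at a Benjamini-Hochberg adjusted p under 0.05 over 12920 genes that reached 1 RPKM in at least 3 libraries; all 10 members passed this filter. Spearman's rho between 2 libraries of a strain, across genes, ran from 0.916 to 0.99 within A/J, from 0.99 to 0.996 within BALB/c and from 0.91 to 0.981 within C57BL/6J. A/J 3 stood apart from A/J 1 and A/J 2, and C57BL/6J 3 from C57BL/6J 1 and C57BL/6J 2. The libraries did not group fully by strain. With A/J 3, rho was 0.939 for A/J 1 and 0.916 for A/J 2, but at least 0.971 for every BALB/c library and 0.971 for C57BL/6J 2. A/J 1 was also closer to C57BL/6J 1 (0.962) than to A/J 3. Each library except A/J 3 had its highest rho with a library of its own strain. A gene's deviation from its mean over all libraries correlated with its transcript GC content, across genes, at -0.645 in A/J 1 and -0.717 in A/J 2 but at 0.458 in A/J 3. The other strains varied as well. This correlation was 0.0945 for BALB/c 1, 0.557 for BALB/c 2 and 0.544 for BALB/c 3. C57BL/6J 1 had -0.297, whereas C57BL/6J 2 had 0.242 and C57BL/6J 3 had 0.392. Lens crystallin genes took 42.2% to 45.1% of the summed values of A/J libraries, 48.9% to 50.1% of BALB/c libraries and 29.6% to 43.9% of C57BL/6J libraries. Rod photoreceptor genes summed to between 11648 and 14914 RPKM, so retina was present in all 9.

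The members spanned almost the whole range of expression in the eye. Sncg, a synuclein (mean over 9 libraries 86.9 RPKM), Nefl (80.5 RPKM) and the surface glycoprotein gene Thy1 (72.0 RPKM) stood highest, at the 95.9, 95.5 and 94.8 percentile of listed genes. A middle group held Nefm (17.1 RPKM), Gap43 (15.9 RPKM), Rbpms (15.9 RPKM) and Nefh (12.0 RPKM). The transcription factor genes stood lowest, with Pou4f1 at 3.10 RPKM, Isl2 at 1.87 RPKM and Pou4f2 at 1.35 RPKM. None of the members was at 0 in any library. Between the highest and the lowest library, Thy1 varied least (1.26-fold) and Isl2 most (3.88-fold).

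**Figure D1:**
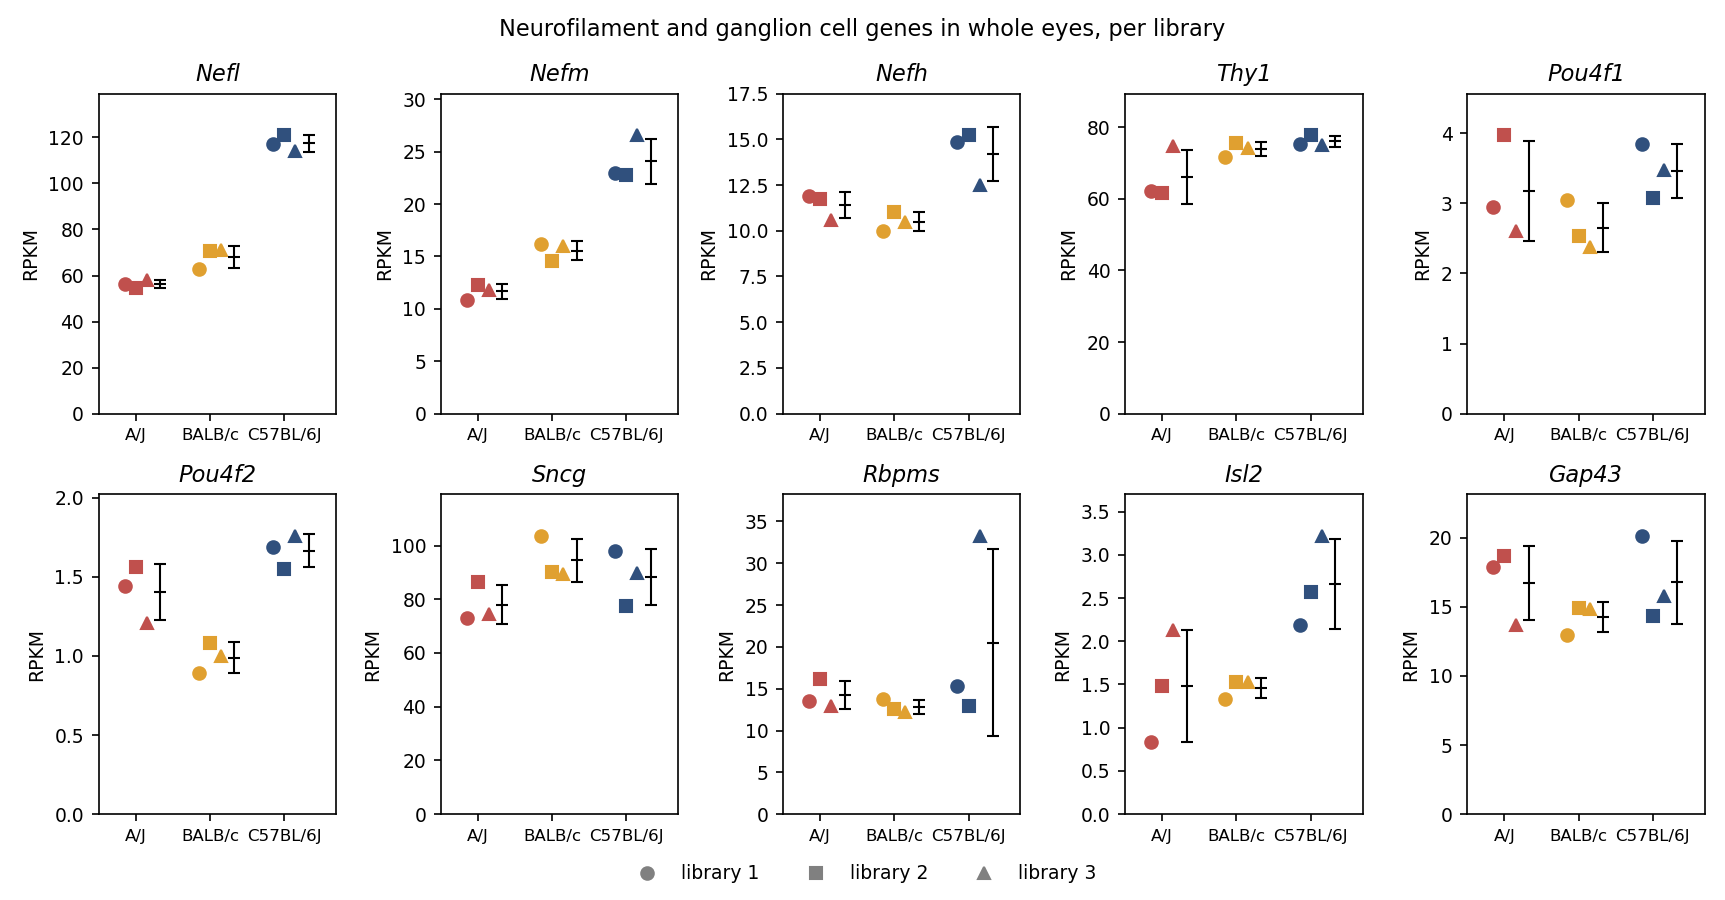
Level of each of the 10 genes in RPKM (vertical axis, from 0) in every library of A/J, BALB/c and C57BL/6J; bars give the mean ± SD of 3 libraries. Nefl and Nefm form 3 separate steps with C57BL/6J on top, while 1 C57BL/6J library stands far above the rest for Rbpms at 33.29 RPKM.

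The light and medium neurofilament genes were lower in the eyes of A/J mice than in those of C57BL/6J mice, and Nefl was also lower in BALB/c eyes. The folds were 0.519 and 0.533 for Nefl and Nefm in A/J, and 0.657 for Nefl in BALB/c. Nefl, whose product is the core subunit, had 56.15, 54.50 and 57.98 RPKM in A/J, 62.75, 70.48 and 70.93 RPKM in BALB/c, and 117.19, 120.92 and 113.95 RPKM in C57BL/6J. Every C57BL/6J library was above every BALB/c library, and every BALB/c library was above every A/J library. Among listed genes it ranked at the 91.9 to 93.6 percentile in A/J libraries, at 94.1 to 94.9 for BALB/c and at 96.5 to 97.6 for C57BL/6J. The strain means were 56.2 ± 1.74 RPKM in A/J, 68.1 ± 4.60 RPKM in BALB/c and 117.4 ± 3.49 RPKM in C57BL/6J (SD, n = 3 each). The log2 change of Nefl in A/J against C57BL/6J was -0.95 (SE 0.125, 95% interval -1.23 to -0.67, limma adjusted p = 0.0034). It was -1.04 (adjusted p = 0.00019) without A/J 3 and C57BL/6J 3, the libraries that stood apart. That fit called 5050 of 12790 genes in this comparison, against 348 of 12920 in the fit of all 9 libraries. With A/J 3 as the only A/J library kept, the change of Nefl was -0.95. In BALB/c against C57BL/6J it was -0.61 (SE 0.125, 95% interval -0.89 to -0.33, limma adjusted p = 0.034). This second call depended on the libraries and the model: the gene was called in 2 of the 9 fits that left out 1 library, with adjusted p from 0.0138 to 0.18, whereas the value stayed between -0.69 and -0.54. It kept its call without A/J 3 or C57BL/6J 3 and lost it without any of the other libraries, namely A/J 1 and 2, BALB/c 1 to 3 and C57BL/6J 1 and 2. The difference of A/J from BALB/c, -0.34 (95% interval -0.62 to -0.06), had an adjusted p of 0.19 in limma.

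Nefm, whose product joins Nefl in the filament and carries a long side arm, had 10.87, 12.29 and 11.84 RPKM in A/J, 16.15, 14.56 and 15.98 RPKM in BALB/c, and 22.94, 22.73 and 26.57 RPKM in C57BL/6J. As for Nefl, the 3 strains did not overlap, with A/J lowest and C57BL/6J highest. The means were 11.7 ± 0.73 RPKM in A/J, 15.6 ± 0.87 RPKM in BALB/c and 24.1 ± 2.16 RPKM in C57BL/6J (SD, n = 3 each). In A/J against C57BL/6J the log2 change was -0.91 (SE 0.111, 95% interval -1.16 to -0.66, limma adjusted p = 0.0022). It was -0.89 (adjusted p = 0.00038) without A/J 3 and C57BL/6J 3, in the fit that called 5050 of 12790 genes. With A/J 3 as the only A/J library it was -0.93. After a correction for GC content it was -0.63 with an adjusted p of 0.10; the transcript of Nefm has 57.8% GC and that of Nefl 48.8%, and Nefl kept its call under this correction. In BALB/c against C57BL/6J, the change of -0.44 (95% interval -0.69 to -0.19) had an adjusted p of 0.080. In A/J against BALB/c, the change of -0.47 (95% interval -0.72 to -0.22) had an adjusted p of 0.067. Without A/J 3 this p was 0.018, in a fit that called 4462 of 12884 genes. The fit of all 9 libraries called 319 of 12920 in this comparison. The adjusted p of this last comparison ran from 0.0023 to 0.70 over the alternatives.

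Nefh, the heavy subunit, whose phosphorylated tail spaces neighbouring filaments, gave no call. It had 11.88, 11.71 and 10.57 RPKM in A/J, 9.97, 11.02 and 10.49 RPKM in BALB/c, and 14.83, 15.22 and 12.48 RPKM in C57BL/6J. C57BL/6J libraries were above all others as deposited, and the A/J and BALB/c libraries overlapped. After scaling all 3 strains overlapped, with C57BL/6J 3 at 10.8 RPKM against up to 12.2 RPKM in A/J and 11.8 RPKM in BALB/c. By limma the log2 change was -0.20 in A/J against C57BL/6J (95% interval -0.54 to 0.14, adjusted p = 0.44) and -0.24 in BALB/c against C57BL/6J (95% interval -0.58 to 0.10, adjusted p = 0.56). Between A/J and BALB/c it was 0.05 (95% interval -0.29 to 0.39, adjusted p = 0.86).

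The make-up of the neurofilament message was compared within each library, where library scaling cancels but an effect of GC content does not. The transcripts of Nefl, Nefm and Nefh have 48.8%, 57.8% and 58.4% GC, and the ratios were not corrected for it. The ratio of Nefm to Nefl was 0.208 ± 0.016 for A/J, 0.230 ± 0.026 for BALB/c and 0.206 ± 0.024 for C57BL/6J (SD, n = 3 each), and these values overlapped between all strains. The exact two-sided permutation test on log2 ratios gave p = 0.9 for A/J against C57BL/6J, p = 0.3 for BALB/c against C57BL/6J and p = 0.3 for A/J against BALB/c. The ratio of Nefh to Nefl was 0.212, 0.215 and 0.182 for A/J, 0.159, 0.156 and 0.148 for BALB/c, and 0.127, 0.126 and 0.110 for C57BL/6J. It was highest in A/J and lowest in C57BL/6J with no overlap between any strains. The log2 ratio differed by 0.75 between A/J and C57BL/6J, by 0.36 between BALB/c and C57BL/6J and by 0.39 between A/J and BALB/c. Each of these differences had p = 0.1 in the exact permutation test, which is the smallest p that 3 libraries against 3 can give, so the design cannot pass 0.05. These 3 comparisons of each of both ratios form 1 family, and adjustment over it cannot lower any p. Nefh to Nefm, a ratio looked at after its values were seen, averaged 0.979 ± 0.103 for A/J, 0.677 ± 0.072 for BALB/c and 0.595 ± 0.109 for C57BL/6J.

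**Figure D2:**
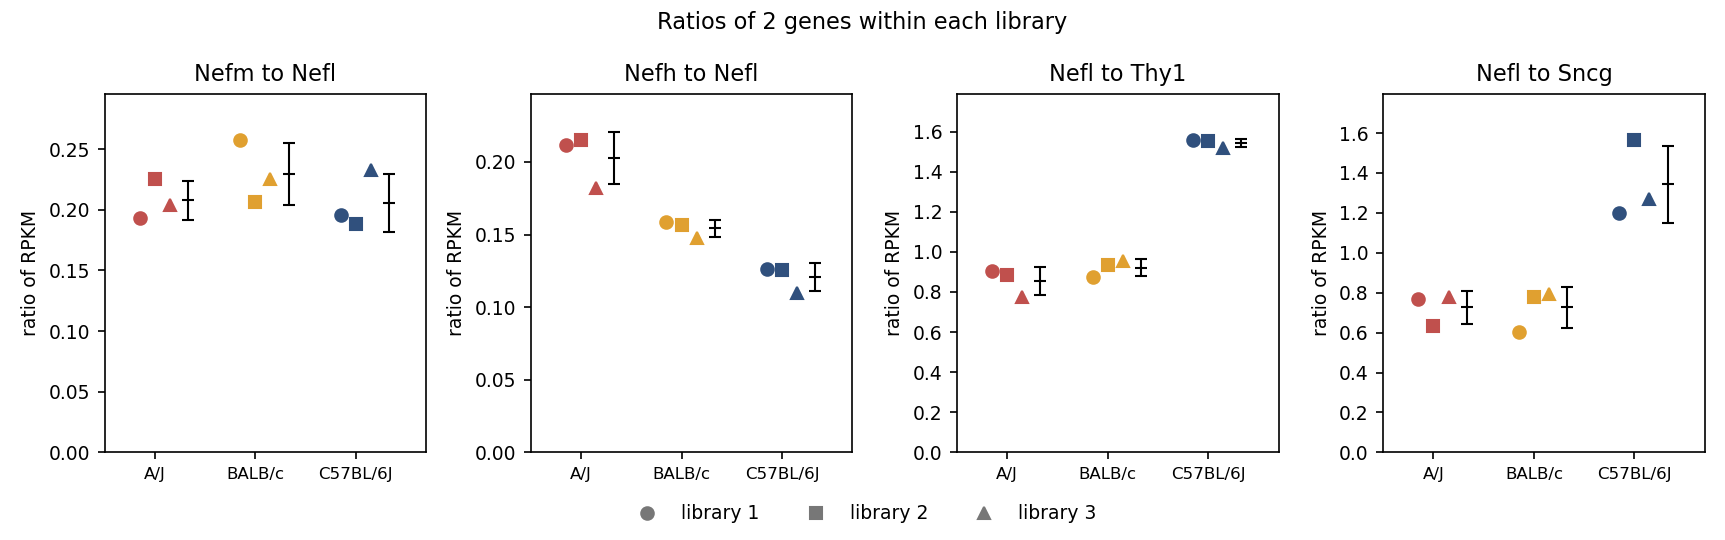
Ratios of RPKM values of 2 genes within each library (vertical axes, from 0) for A/J, BALB/c and C57BL/6J, with mean ± SD of 3 libraries. Nefm to Nefl overlaps between strains, Nefh to Nefl falls into 3 separate steps with A/J highest, and Nefl to Thy1 and Nefl to Sncg are lower in both A/J and BALB/c than in C57BL/6J.

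The transcription factors that specify ganglion cells were near the low end of the values. Pou4f1 (Brn3a), which controls ganglion cell survival and dendrite shape, had 2.94, 3.97 and 2.60 RPKM in A/J, 3.04, 2.54 and 2.38 RPKM in BALB/c, and 3.84, 3.07 and 3.48 RPKM in C57BL/6J. A/J spanned the range of C57BL/6J, and its mean of 3.17 ± 0.71 RPKM lay within the spread of the C57BL/6J mean of 3.46 ± 0.39 RPKM. The limma adjusted p was 0.92 in A/J against C57BL/6J, at a log2 change of -0.03 with a 95% interval from -0.42 to 0.36. BALB/c and C57BL/6J did not overlap as deposited but did after scaling, and the change of -0.18 (95% interval -0.57 to 0.21) had an adjusted p of 0.76.

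Pou4f2 (Brn3b), which drives axon outgrowth and differentiation in newborn ganglion cells, had 1.44, 1.56 and 1.21 RPKM in A/J, 0.89, 1.08 and 1.00 RPKM in BALB/c, and 1.69, 1.55 and 1.76 RPKM in C57BL/6J. BALB/c was below both other strains in all libraries, and A/J overlapped C57BL/6J by 1 library. The log2 change was -0.41 in BALB/c against C57BL/6J (SE 0.132, 95% interval -0.71 to -0.11, limma adjusted p = 0.18). Between A/J and BALB/c it was 0.31 (95% interval 0.01 to 0.60, adjusted p = 0.23). Between A/J and C57BL/6J it was -0.11 (95% interval -0.41 to 0.19, adjusted p = 0.61). At these levels the added 0.5 RPKM makes fold changes smaller than the values themselves would give.

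Isl2, a LIM homeodomain factor of ganglion cells that project to the opposite side of the brain, had 0.83, 1.48 and 2.13 RPKM in A/J, 1.33, 1.53 and 1.53 RPKM in BALB/c, and 2.19, 2.57 and 3.22 RPKM in C57BL/6J. As deposited, every C57BL/6J library was above every library of the albino strains, and A/J covered the whole BALB/c range and more. After scaling A/J 3 (2.12 RPKM) was just above C57BL/6J 1 (2.10 RPKM), and BALB/c stayed below C57BL/6J. The log2 change was -0.63 in A/J against C57BL/6J (SE 0.227, 95% interval -1.14 to -0.12, limma adjusted p = 0.22). It was -0.53 in BALB/c against C57BL/6J (95% interval -1.05 to -0.02, adjusted p = 0.34). The first of these varied with A/J 3, a library that stood apart. A/J 1 and A/J 2 had GC correlations of -0.645 and -0.717, and the transcript of Isl2 has 60.0% GC, the highest of the members. The cause of the variation with A/J 3 was not tested. A fit without A/J 3 called 3634 of 12884 genes, against 348 of 12920 in the fit of all 9 libraries. In the fit without A/J 3 the change of Isl2 was -0.85 with an adjusted p of 0.022. The range of that adjusted p over all alternatives was 0.011 to 0.89. The summed RPKM of the 3 transcription factor genes was 5.21, 7.01 and 5.94 for A/J, 5.26, 5.15 and 4.91 for BALB/c, and 7.72, 7.19 and 8.46 for C57BL/6J.

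The abundant markers outside the neurofilament family gave no call between strains. Numbers of marker genes at an unadjusted p under 0.05 are given below in the order A/J against C57BL/6J, BALB/c against C57BL/6J, A/J against BALB/c. Among all genes tested, 17.5%, 13.7% and 20.9% had such a p. Thy1, a glycoprotein of ganglion cell membranes, had 62.10, 61.54 and 74.73 RPKM in A/J, 71.63, 75.46 and 74.27 RPKM in BALB/c, and 75.28, 77.74 and 75.08 RPKM in C57BL/6J. A/J 3 lay within the BALB/c range and A/J 1 and A/J 2 below it, and as deposited all A/J libraries were below all C57BL/6J libraries. After scaling A/J 3 (74.2 RPKM) was above C57BL/6J 3 (64.8 RPKM), so these strains overlapped, and A/J was below BALB/c in all libraries. The log2 change was -0.10 in A/J against C57BL/6J (95% interval -0.38 to 0.19, limma adjusted p = 0.63) and 0.13 in BALB/c against C57BL/6J (95% interval -0.15 to 0.42, adjusted p = 0.75). For Thy1 in both comparisons, a change as large as that of Nefl lies outside the interval. Markers of stromal fibroblasts, another source of Thy1, summed to 1440.5, 1772.8 and 1107 RPKM in A/J, 1044.2, 989.6 and 1006.4 RPKM in BALB/c, and 1770, 1469.3 and 934 RPKM in C57BL/6J. None of the 6 was called by limma (1, 1 and 1 at an unadjusted p under 0.05), and their part in the level of Thy1 was not tested.

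Sncg, gamma-synuclein, an axonal protein of ganglion cells, had 72.89, 86.39 and 74.60 RPKM in A/J, 103.64, 90.33 and 89.54 RPKM in BALB/c, and 97.83, 77.34 and 89.81 RPKM in C57BL/6J. A/J lay below BALB/c in all libraries, and C57BL/6J overlapped both as deposited; after scaling it overlapped A/J and lay below BALB/c. The log2 change was -0.35 in A/J against BALB/c (95% interval -0.66 to -0.04, limma adjusted p = 0.21), -0.07 in A/J against C57BL/6J (95% interval -0.38 to 0.24, adjusted p = 0.76) and 0.28 in BALB/c against C57BL/6J (95% interval -0.03 to 0.59, adjusted p = 0.43). Of fat cell markers, 4 of 5 were listed and 3 were tested, with 0 called by limma (0, 3 and 2 at an unadjusted p under 0.05). They summed to 24.2, 68.8 and 13.2 RPKM in A/J, 76.2, 29.3 and 43.9 RPKM in BALB/c, and 15.1, 25.5 and 5.9 RPKM in C57BL/6J, and their part in the level of Sncg was not tested.

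Rbpms, an RNA-binding protein found in the cell bodies of all ganglion cells, had 13.54, 16.20 and 12.98 RPKM in A/J, 13.75, 12.53 and 12.22 RPKM in BALB/c, and 15.37, 12.91 and 33.29 RPKM in C57BL/6J. A single library, C57BL/6J 3, was far above every other. The log2 change was -0.29 in A/J against C57BL/6J (95% interval -0.89 to 0.31, limma adjusted p = 0.50) and -0.36 in BALB/c against C57BL/6J (95% interval -0.96 to 0.24, adjusted p = 0.64). Without C57BL/6J 3 these changes were 0.05 and -0.02. Smooth muscle and pericyte markers, another source of Rbpms, summed to 184.8, 176.8 and 185.1 RPKM in A/J, 214.6, 219.5 and 191.2 RPKM in BALB/c, and 266.8, 258.3 and 236.6 RPKM in C57BL/6J. The sum rests mostly on Acta2, at 147.57, 135.97 and 103.96 RPKM in C57BL/6J, and not all markers followed it. In C57BL/6J 3, the library with high Rbpms, Myh11 was at 30.25 RPKM against 13.35 and 13.69 RPKM in the other C57BL/6J libraries. Pdgfrb was at 21.87 RPKM against 9.22 and 9.83 RPKM. Des was lower there, at 26.56 RPKM against 43.31 and 42.24 RPKM. Tagln (51.91 RPKM against 51.25 and 54.65 RPKM) and Cnn1 (2.09 RPKM against 2.13 and 1.95 RPKM) stayed near the other libraries. Their part in the level of Rbpms was not tested, and 0 of the 6 markers were called by limma (2, 0 and 1 at an unadjusted p under 0.05).

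Gap43, the growth cone protein of extending and regenerating axons, had 17.85, 18.67 and 13.67 RPKM in A/J, 12.99, 14.94 and 14.82 RPKM in BALB/c, and 20.14, 14.35 and 15.80 RPKM in C57BL/6J. The 3 strains overlapped. The log2 change was 0.10 in A/J against C57BL/6J (95% interval -0.30 to 0.51, limma adjusted p = 0.72) and -0.04 in BALB/c against C57BL/6J (95% interval -0.45 to 0.36, adjusted p = 0.96).

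Counted together, 2 of the 10 genes were called in A/J against C57BL/6J (Nefl and Nefm), where 2.69% of all genes were called. In BALB/c against C57BL/6J 1 was called (Nefl), where 3.07% of all genes were called. In A/J against BALB/c 0 were called by limma, where 2.47% of all genes were called. An unadjusted p under 0.05 was reached by 3 members in A/J against C57BL/6J (17.5% of all genes), by 4 in BALB/c against C57BL/6J (13.7%) and by 4 in A/J against BALB/c (20.9%), in the last case Nefl, Nefm, Pou4f2 and Sncg. On the scaled values used in the test, the libraries did not overlap for 2 of 10 members in A/J against C57BL/6J (16.4% of all genes), for 5 in BALB/c against C57BL/6J (25.1%) and for 5 in A/J against BALB/c (29.1%). As deposited these counts were 5 (16.3%), 6 (33.4%) and 4 (33.1%). The median log2 change of the 10 members was -0.15, -0.30 and -0.02 in these 3 comparisons, and that of all genes was -0.01 in each. The comparisons share strains and are not independent of each other.

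**Figure D3:**
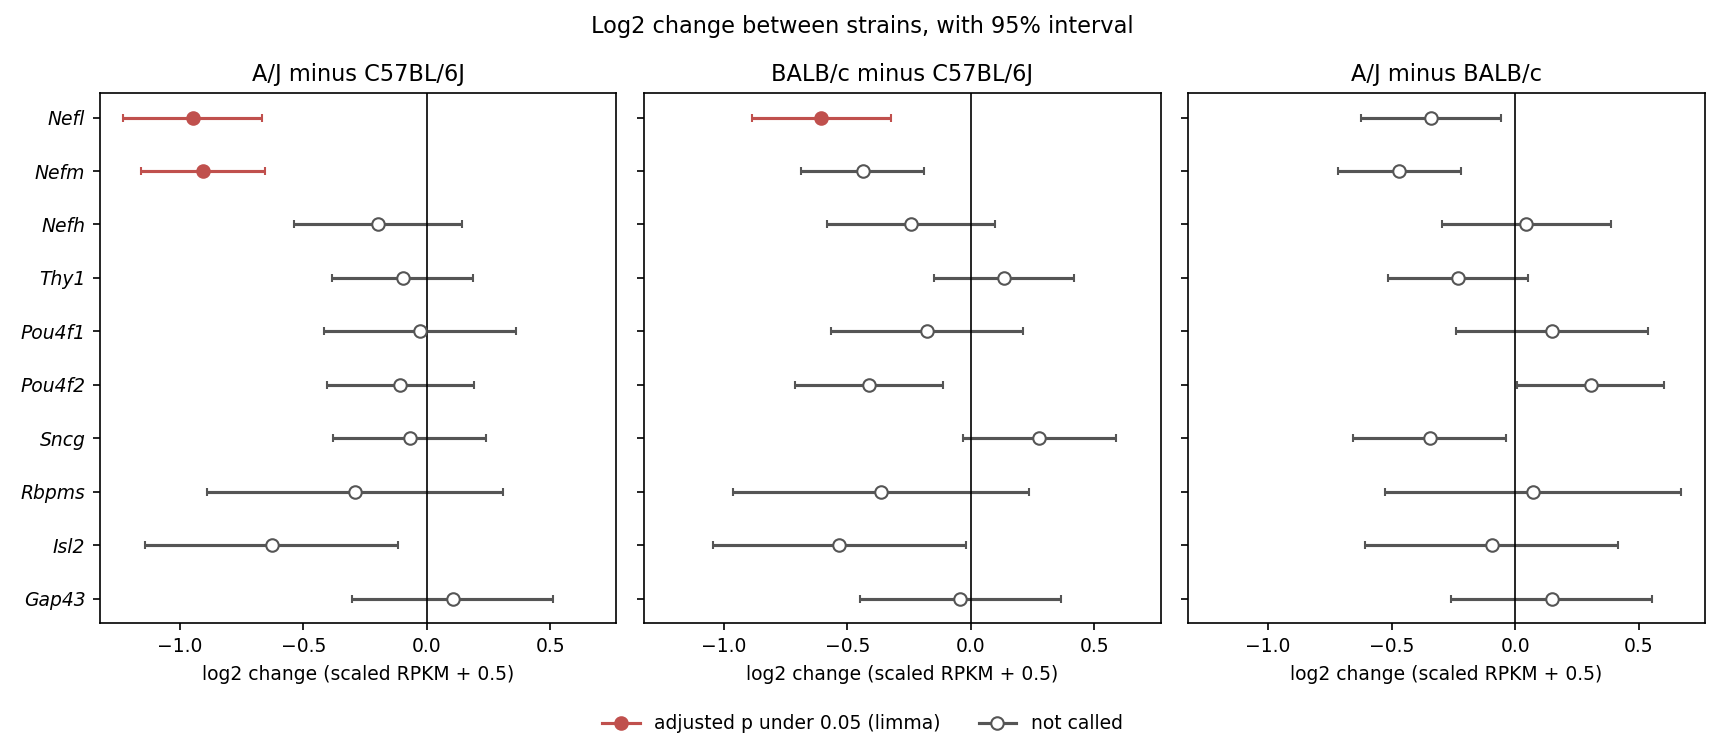
Log2 change of each gene (horizontal axis, scaled RPKM + 0.5) with its 95% interval in panels for A/J minus C57BL/6J, for BALB/c minus C57BL/6J and for A/J minus BALB/c; filled points passed an adjusted p under 0.05 in limma. Nefl and Nefm stand apart on the left in A/J minus C57BL/6J at -0.95 and -0.91, and Nefl is the one filled point in BALB/c minus C57BL/6J at -0.61.

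Nefl was also set against the abundant ganglion cell genes within each library. These ratios were chosen after the values were seen and were not tested. Nefl to Thy1 averaged 0.855 ± 0.069 for A/J, 0.922 ± 0.041 for BALB/c and 1.54 ± 0.022 for C57BL/6J (SD, n = 3 each). Nefl to Sncg averaged 0.726 ± 0.083 for A/J, 0.726 ± 0.105 for BALB/c and 1.34 ± 0.194 for C57BL/6J. For both ratios every C57BL/6J library was above all libraries of A/J and BALB/c. Nefl made up 22.4%, 20.3% and 22.1% of the summed RPKM of the 10 genes for A/J, 21.2%, 23.9% and 24.2% for BALB/c, and 31.6%, 34.7% and 30.4% for C57BL/6J. The sum of the 8 genes other than Nefl and Nefm was 183.5, 201.5 and 192.5 RPKM in A/J, 217.2, 209.4 and 206.3 RPKM in BALB/c, and 231.2, 204.8 and 234.9 RPKM in C57BL/6J.

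The spread between libraries of a strain differed between members. The SD of the scaled log2 value of Nefl was 0.0331 for A/J, 0.106 for BALB/c and 0.148 for C57BL/6J, that of Nefm was 0.0769, 0.0675 and 0.0313 for the same strains, and that of the median gene was 0.263, 0.102 and 0.246. Both neurofilament genes thus varied less than the median gene within A/J and within C57BL/6J, and Nefl varied about as much as it within BALB/c. Isl2 in A/J (0.478) and Rbpms in C57BL/6J (0.606) had the largest SD of any member, and both strains held a library that stood apart.

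Of 29 further ganglion cell genes, 25 were listed, and 0 were called by limma in any of the 3 comparisons; 8, 5 and 8 had an unadjusted p under 0.05. In A/J against C57BL/6J 6 of these were lower (Pou4f3, Ebf1, Opn4, L1cam, Spp1 and Cplx1) and 2 higher (Isl1 and Pvalb), and in BALB/c against C57BL/6J 4 were lower (Nell2, Spp1, Elavl2 and Elavl4) and 1 higher (Cartpt). Their median log2 change was -0.13 in A/J against C57BL/6J, -0.19 in BALB/c against C57BL/6J and 0.04 in A/J against BALB/c. The genes described next were chosen after their values were seen. The glutamate transporter gene Slc17a6, which loads the transmitter of ganglion cells into vesicles, had 11.30, 13.26 and 9.04 RPKM in A/J, 8.27, 6.18 and 6.93 RPKM in BALB/c, and 11.17, 10.63 and 10.27 RPKM in C57BL/6J. Opn4, melanopsin, the photopigment of light-sensitive ganglion cells, had 1.95, 1.96 and 2.57 RPKM in A/J, 2.37, 2.58 and 2.32 RPKM in BALB/c, and 2.82, 2.84 and 4.39 RPKM in C57BL/6J. Spp1, osteopontin, a marker of large alpha-type ganglion cells that is also made elsewhere in the eye, had 30.06, 36.10 and 17.95 RPKM in A/J, 28.28, 24.95 and 26.72 RPKM in BALB/c, and 60.51, 44.05 and 39.56 RPKM in C57BL/6J. As deposited, C57BL/6J was above both albino strains for Opn4 and Spp1 in every library, but after scaling it overlapped BALB/c for Opn4 and A/J for Spp1. BALB/c was below both other strains for Slc17a6. Isl1, a LIM homeodomain factor of ganglion and other inner retinal cells, was highest in A/J. It had 19.15, 26.46 and 17.70 RPKM in A/J, 11.40, 11.16 and 12.91 RPKM in BALB/c, and 14.33, 14.47 and 14.12 RPKM in C57BL/6J. For Isl1, BALB/c was below C57BL/6J in every library as deposited, and these strains overlapped after scaling. None of these differences passed the test.

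Among 25 genes of neuronal intermediate filaments and the axonal cytoskeleton, 0 were called in A/J against C57BL/6J and in A/J against BALB/c, and 1 was called in BALB/c against C57BL/6J; in the order A/J against C57BL/6J, BALB/c against C57BL/6J, A/J against BALB/c, 5, 3 and 5 had an unadjusted p under 0.05. The called gene, Stmn1, a stathmin that destabilises microtubules, was higher in BALB/c. It had 14.71, 15.62 and 15.79 RPKM in BALB/c against 9.50, 7.00 and 7.99 RPKM in C57BL/6J, a log2 change of 1.05 (SE 0.216, limma adjusted p = 0.035). Intermediate filament genes whose products join neurofilaments, and a tubulin gene, were looked at after their values were seen, and none of them passed the test. Ina, alpha-internexin, had 15.08, 14.60 and 21.42 RPKM in A/J, 16.25, 19.48 and 19.86 RPKM in BALB/c, and 18.63, 23.46 and 23.72 RPKM in C57BL/6J. Prph, peripherin, had 1.39, 1.64 and 1.55 RPKM in A/J, 1.58, 1.04 and 1.45 RPKM in BALB/c, and 2.61, 1.81 and 5.21 RPKM in C57BL/6J. Prph was higher in all C57BL/6J libraries than in the others, and Ina overlapped between A/J and C57BL/6J. The neuronal tubulin gene Tubb3 had 30.46, 29.25 and 46.89 RPKM in A/J, 39.43, 46.29 and 43.31 RPKM in BALB/c, and 36.26, 43.24 and 50.22 RPKM in C57BL/6J, and the strains overlapped. The median log2 change of the 25 genes was -0.17, -0.06 and -0.00 in A/J against C57BL/6J, BALB/c against C57BL/6J and A/J against BALB/c.

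Genes that respond to axon injury, such as Atf3 and Jun, gave 0 calls by limma, with 0, 0 and 1 at an unadjusted p under 0.05: 9 of 12 were listed, 8 were tested, and the median log2 change was -0.24, -0.09 and -0.04 in the same 3 comparisons. Sprr1a, which missed the filter and was not tested, had 3.48 RPKM in C57BL/6J 1 and 6.18 RPKM in C57BL/6J 3, and under 1 RPKM in the other libraries. Atf3, a transcription factor induced in injured ganglion cells and named after its values were seen, had 3.54, 2.88 and 4.33 RPKM in A/J, 2.30, 3.16 and 2.61 RPKM in BALB/c, and 3.75, 2.37 and 3.65 RPKM in C57BL/6J.

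Marker genes of other cell types were read in the same libraries, among them cells that contain neurofilament or travel with ganglion cell axons. Horizontal cell markers (3 of 6 listed) summed to 45.7, 50.7 and 45.5 RPKM in A/J, 46.3, 43.5 and 40.5 RPKM in BALB/c, and 46.4, 48.2 and 46.3 RPKM in C57BL/6J, with 0 called by limma and 0, 1 and 0 at an unadjusted p under 0.05. This sum overlapped between A/J and C57BL/6J, and it holds only Calb1, Prox1 and Tcfap2b, since Lhx1, Onecut1 and Onecut2 were not listed. Peripheral nerve and sensory neuron markers (3 of 6 listed) gave 0 calls, with 1, 2 and 1 at an unadjusted p under 0.05. Oligodendrocyte and myelin genes, which mark optic nerve left on the eye, gave 0 calls of 8 tested, with 4, 0 and 0 at an unadjusted p under 0.05. Their median log2 change was 1.89 in A/J against C57BL/6J, 0.84 in BALB/c against C57BL/6J and 0.94 in A/J against BALB/c. They summed to 1102.9, 361.4 and 281.8 RPKM in A/J, 154.3, 272.6 and 191.9 RPKM in BALB/c, and 204.3, 302.8 and 41.9 RPKM in C57BL/6J. A/J 1 was highest and C57BL/6J 3 lowest, while Nefl ran from 54.50 to 57.98 RPKM within A/J and from 113.95 to 120.92 RPKM within C57BL/6J. Amacrine cell genes gave 1 call of 7, Gad2, the enzyme that makes GABA, which was higher in A/J than in C57BL/6J (log2 change 0.71, limma adjusted p = 0.031) and than in BALB/c (0.74, adjusted p = 0.028). Markers of astrocytes and Mueller glia gave 0 calls of 7, with 1, 0 and 1 at an unadjusted p under 0.05. Of 6 rod genes, 3, 2 and 3 of which had an unadjusted p under 0.05, Sag, rod arrestin, was called higher in A/J than in C57BL/6J (1.11, adjusted p = 0.0065). Of 3 hypothalamic neuropeptide genes listed, Avp (6.55, adjusted p = 3.4e-05) and Oxt (2.48, adjusted p = 0.011) were called higher in BALB/c than in C57BL/6J, and the test also placed both lower in A/J eyes than in BALB/c eyes. Of 16 lens crystallins 4, 13 and 6 had an unadjusted p under 0.05, and their median log2 change was 0.52, 1.05 and -0.41 in the same order. Among them Cryga was called higher in BALB/c than in C57BL/6J (3.07, adjusted p = 0.017) and Crygf lower in A/J eyes than in BALB/c eyes (-2.28, adjusted p = 0.040). The part of these cell types in the neurofilament values was not tested.

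To see which genes followed Nefl most closely, each gene with a mean of at least 2 RPKM was centred on its own mean log2 value, and its mean absolute difference from Nefl was taken over the 9 libraries. The nearest of 11620 genes were Ubash3b (0.077), Icam1 (0.088), Cbln1 (0.097), C1qdc2 (0.098) and Prss12 (0.0999), and the median gene was at 0.41. Nefm ranked 10 (0.122) and Nefh 537 (0.263). Ubash3b, a tyrosine phosphatase, had 2.10, 2.28 and 2.52 RPKM in A/J, 2.35, 2.66 and 2.61 RPKM in BALB/c, and 4.85, 4.41 and 4.50 RPKM in C57BL/6J. Cbln1, a secreted synapse organiser, had 3.11, 3.53 and 4.12 RPKM in A/J, 4.49, 4.31 and 4.97 RPKM in BALB/c, and 7.75, 7.53 and 8.09 RPKM in C57BL/6J. Both genes were highest in all C57BL/6J libraries, as Nefl was. Nearness here is a description over 3 strains, and genes that share a strain order share no more than that by this measure. Against the mean of the 3 neurofilament genes, the nearest were Tspan18 (0.060), Idua (0.061), Klhdc5 (0.078), Ubash3b (0.082) and Prkab1 (0.084).

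**Figure D4:**
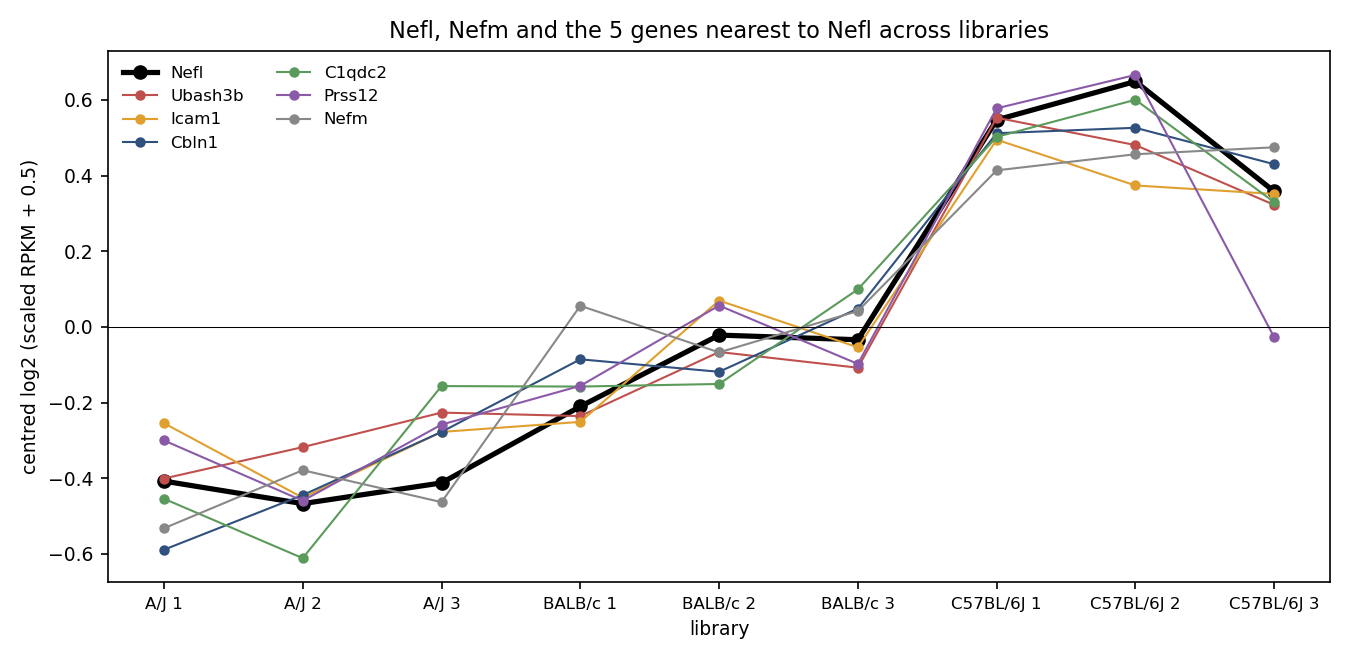
Centred log2 (scaled RPKM + 0.5) (vertical axis) of Nefl, Nefm and the 5 genes nearest to Nefl in the 9 libraries (horizontal axis); lines join the values of 1 gene. All 7 genes lie below 0 in A/J, near or below 0 in BALB/c and above 0 in C57BL/6J, except Prss12, which is at -0.03 in C57BL/6J 3.

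**Figure D5:**
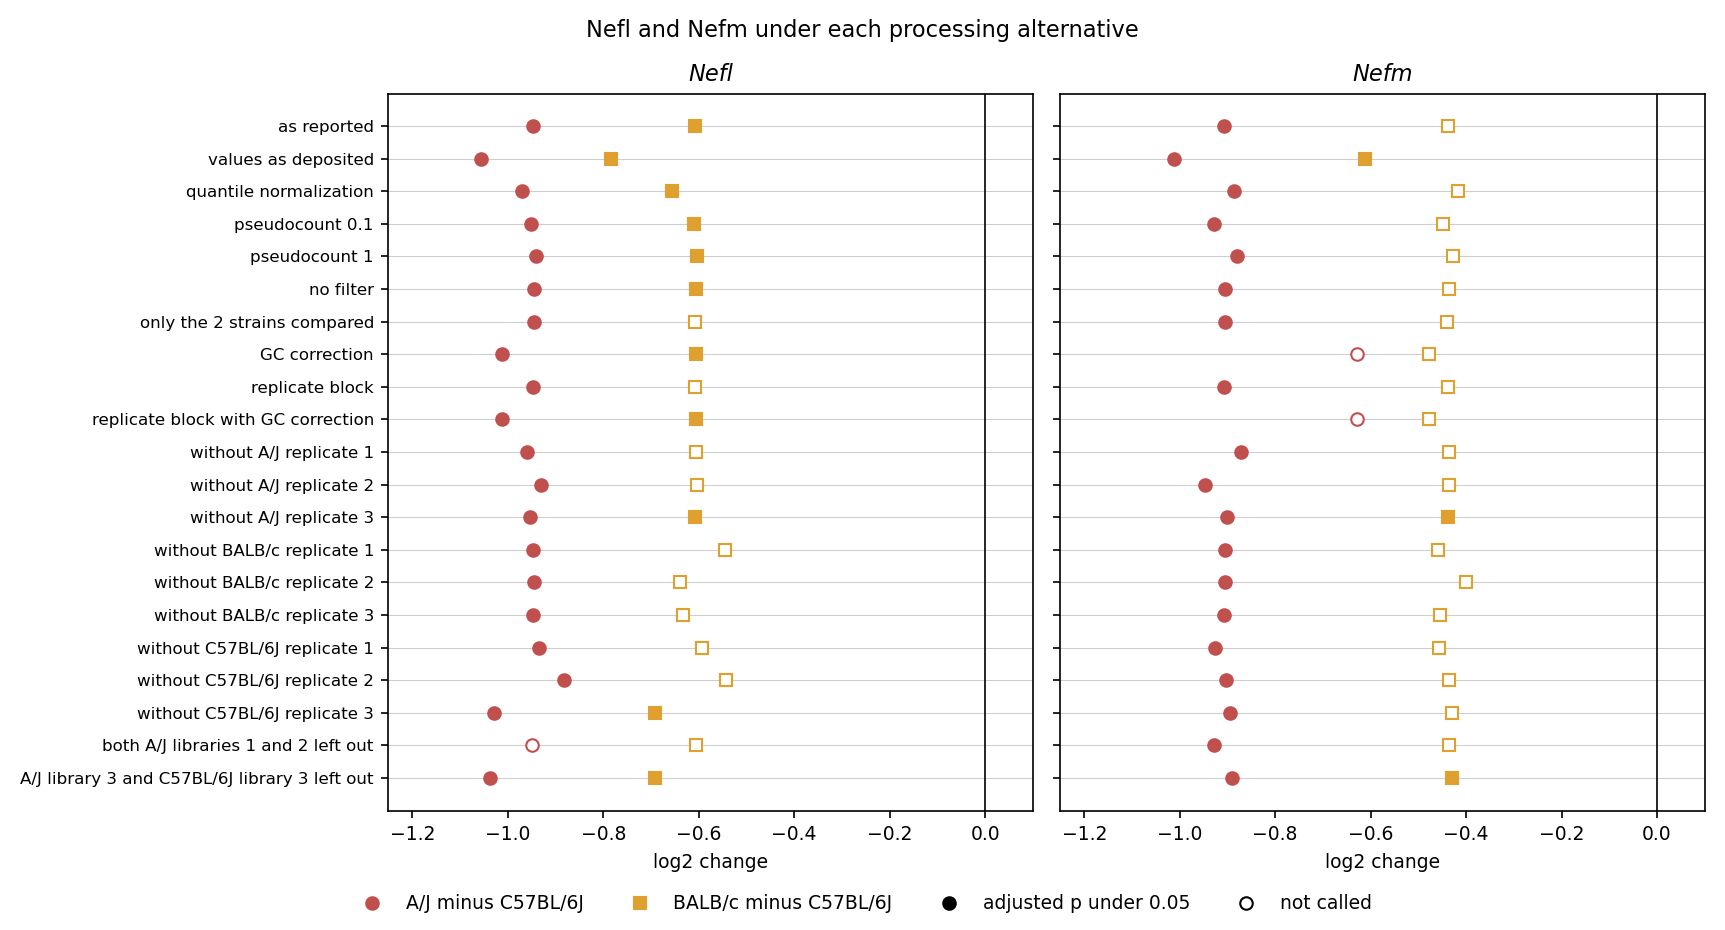
Log2 change of Nefl (left) and Nefm (right) for A/J minus C57BL/6J and for BALB/c minus C57BL/6J (horizontal axis) under each processing alternative (rows); filled points passed an adjusted p under 0.05. All points lie left of 0, and the filled points thin out for BALB/c minus C57BL/6J.

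Both A/J differences kept their direction under all 20 alternatives tried, with Nefl between -1.06 and -0.88 and Nefm between -1.01 and -0.63. Nefl was called in 19 and Nefm in 18 of these, and both were called in 9 of 9 fits that left out 1 library. Nefl in BALB/c against C57BL/6J also kept its direction in all 20, between -0.78 and -0.54, and was called in 10.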

How the data were processed

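The authors deposited 1 table per library with 13089 gene symbols and a value with 2 decimals. The file headers name no unit, and the deposited values were taken as RPKM. The submitters' processing notes name CASAVA 1.7, GenomeStudio and build mm9, and no source used here gives read length, gene models or counting rule. Depth is unknown, so no counting error is given. Members and gene lists were chosen with earlier results of these data known. Of 156 genes in 16 lists, 132 were found, 8 of them under an older symbol; none of the T lymphocyte markers was found, so they were not analysed here. Size factors were medians of ratios to the geometric mean of each gene (0.931 to 1.16). Genes with at least 1 RPKM in at least 3 libraries were kept (12920; 169 left out) and tested as log2(RPKM + 0.5) with limma 3.58.1 in R 4.3.3 (trend and robust variance, strain as the only term, Benjamini-Hochberg adjustment); the code was tested on simulated data. The ratios of Nefm and of Nefh to Nefl were tested with exact permutations. The rule for named genes took the 10 members, list genes called in any comparison, and the 5 genes nearest to Nefl and to the neurofilament mean. Coding sequences were aligned with MAFFT 7.526.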

Additional observations from a re-analysis of the deposited data

How the results depend on the processing

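Of the 10 genes, 2 were called in A/J against C57BL/6J, 1 in BALB/c against C57BL/6J and 0 in A/J against BALB/c. In the first comparison 1 was called with the GC correction, 1 with the replicate block and GC correction together and 1 with both A/J 1 and A/J 2 left out. In the second, 2 were called on the values as deposited, 0 in a fit of only the 2 strains, 0 with the replicate block, 0 without A/J 1 and A/J 2, and 3 without A/J 3 and C57BL/6J 3. In the third, 4 were called without A/J 3 and C57BL/6J 3 (Nefl, Nefm, Pou4f2 and Thy1). The range with 1 library left out at a time was 2 to 3, 0 to 2 and 0 to 2 members. The cause was not tested. No called change reversed its sign. Among all genes 348, 396 and 319 were called in the 3 comparisons; leaving out 1 library gave 153 to 3634, 149 to 631 and 79 to 4462, with the highest count each time without A/J 3. Leaving out A/J 3 and C57BL/6J 3 gave 5050, 1873 and 7695, leaving out A/J 1 and A/J 2 gave 126, 392 and 68, and a fit of 2 strains gave 139, 389 and 423. Values as deposited shifted the median of all genes to -0.11, -0.17 and 0.05 (log2). Whether replicate numbers pair the libraries is not settled by these data. Deviations of same-numbered libraries of A/J and C57BL/6J correlated at 0.54, 0.01 and 0.47, and those of A/J and BALB/c at 0.34, -0.51 and 0.24. Those of BALB/c and C57BL/6J correlated at 0.34, 0.02 and 0.09. Not every library correlated best with its own number, and a replicate block gave 408, 397 and 375 calls.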
